A study of Mus musculus with 17 samples.

Results

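The ETS transcription factors of blood cells were followed in erythroid blasts of mice that carry a Spi1 transgene. The genes were chosen by name: Spi1, Spib, Spic, Fli1, Erg, Ets1, Ets2, Etv6, Gabpa and Elf1. Of these 10 genes, 9 had a row among the 26029 genes counted in model 1 and the 24659 genes counted in model 2. Spic was not analysed here. All 9 passed the filter on low counts in model 1, where 13393 genes were tested, and 8 passed it in model 2, where 12970 genes were tested. Spib passed only in model 1, and there only through its level in leukaemic cells.

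ETS factors bind DNA through a shared domain that recognises a GGAA core. SPI1, also called PU.1, drives myeloid and B lymphoid fates and must be silenced for red cell maturation, and it and the erythroid factor GATA1 antagonise each other by direct contact. When Spi1 stays on in erythroid precursors, they stop maturing, remain dependent on erythropoietin (EPO) and form the preleukaemic stage of an erythroleukaemia. SPIB is a close relative of SPI1 known from B cells and plasmacytoid dendritic cells. FLI1 and ERG are megakaryocyte and stem cell factors, ETS1 and ETS2 are effectors of growth signalling, ETV6 is a repressor needed by blood stem cells, GABPA drives housekeeping and mitochondrial genes, and ELF1 acts in lymphoid, endothelial and erythroid genes.

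RNA was sequenced from 17 mice, with 1 library per mouse, after culture of the blasts with EPO. All mice carried the transgene TgSpi1, heterozygous in the TgSpi1FA-/- mice, and the promoter that drives it is not given in the sources used here. Libraries are named by the end of their labels. Model 1 (DBA2JxFVB/N) held 4 preleukaemic TgSpi1FA+/+ mice (preleukemic_138, preleukemic_445, preleukemic_451 and preleukemic_479), 3 preleukaemic TgSpi1FA-/- mice (preleukemic_40, preleukemic_77 and preleukemic_224), which lack the Fanconi anaemia gene Fanca, and 3 leukaemic TgSpi1FA-/- mice (leukemic_26, leukemic_28 and leukemic_39). Model 2 (DBA2J) held 4 preleukaemic (preleukemic_633, preleukemic_663, preleukemic_812 and preleukemic_837) and 3 leukaemic (leukemic_601, leukemic_606 and leukemic_921) TgSpi1FA+/+ mice. Its leukaemia arose after anaemic preleukaemic mice were given repeated blood transfusions. The study reports activating Kit mutations in leukaemic cells of this model. Leukaemic cells grew without EPO and formed tumours under the skin, and preleukaemic cells did not. Ages were not in the labels. Input RNA was 400 ng in model 1 and 300 ng in model 2, fragmented for 8 and 2 min, so that strain, model and protocol cannot be told apart and levels are compared within a model only. The sequence of the transgene is not given in the sources used here. Its counts are assumed to fall on the row of the endogenous Spi1 gene, where both cannot be told apart.

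Libraries held 29964576 to 38217654 counts in model 1 and 37726753 to 40514205 in model 2. Fanca, the gene deleted in TgSpi1FA-/- mice, had 0.615 to 2.30 CPM (counts scaled by library size and TMM) in the 6 TgSpi1FA-/- libraries and 28.2 to 83.5 CPM in the 4 TgSpi1FA+/+ libraries of model 1. The column names of preleukemic_40, preleukemic_77 and preleukemic_224 call them leukaemic, whereas the titles, used here, call them preleukaemic. Libraries preleukemic_445 and preleukemic_479 differed less from each other (chi-square per degree of freedom 8.53) than the other pairs within groups of model 1 (114 to 372), but not so in a second table of counts (350 against 393 to 742). Each was counted as a separate mouse, as labelled, and whether they share material was not tested. The summed level of the erythroid markers was 5567 to 8627 CPM in the preleukaemic libraries of model 1 and 2142 to 4521 CPM in the leukaemic ones. Of the latter sum, Tfrc made up 1215 to 2195 CPM. Not every marker was present throughout: the lowest leukaemic levels were 0.102 CPM for Hbb-bt and 0.837 CPM for Hbb-bs. Hba-a2 stayed at or under 0.131 CPM in model 1. Defining markers of macrophages summed to at most 0.0952 CPM, and those of B cells to at most 0.736 CPM, in any library of model 1. In such bulk RNA, fewer cells of a type and less RNA per cell cannot be told apart.

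Spi1 (ENSMUSG00000002111, GRCm38 chromosome 2 from 91082390 to 91115756, plus strand) was the highest of the ETS genes in every preleukaemic group. Its level per kb of exon was 257 ± 95.2 CPM per kb (SD, n = 4) in TgSpi1FA+/+ preleukaemic cells of model 1. Elf1 followed at 29.4 ± 8.23, Gabpa at 26.2 ± 2.43, Etv6 at 17.9 ± 4.44 and Fli1 at 12.1 ± 5.96 CPM per kb. Ets2 stood at 2.69 ± 2.41, Ets1 at 0.798 ± 0.368, Erg at 0.218 ± 0.363 and Spib at 0.0344 ± 0.0113 CPM per kb. The levels of Elf1 and Gabpa, next to each other in this order, overlapped within their spread.

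**Figure D1:**
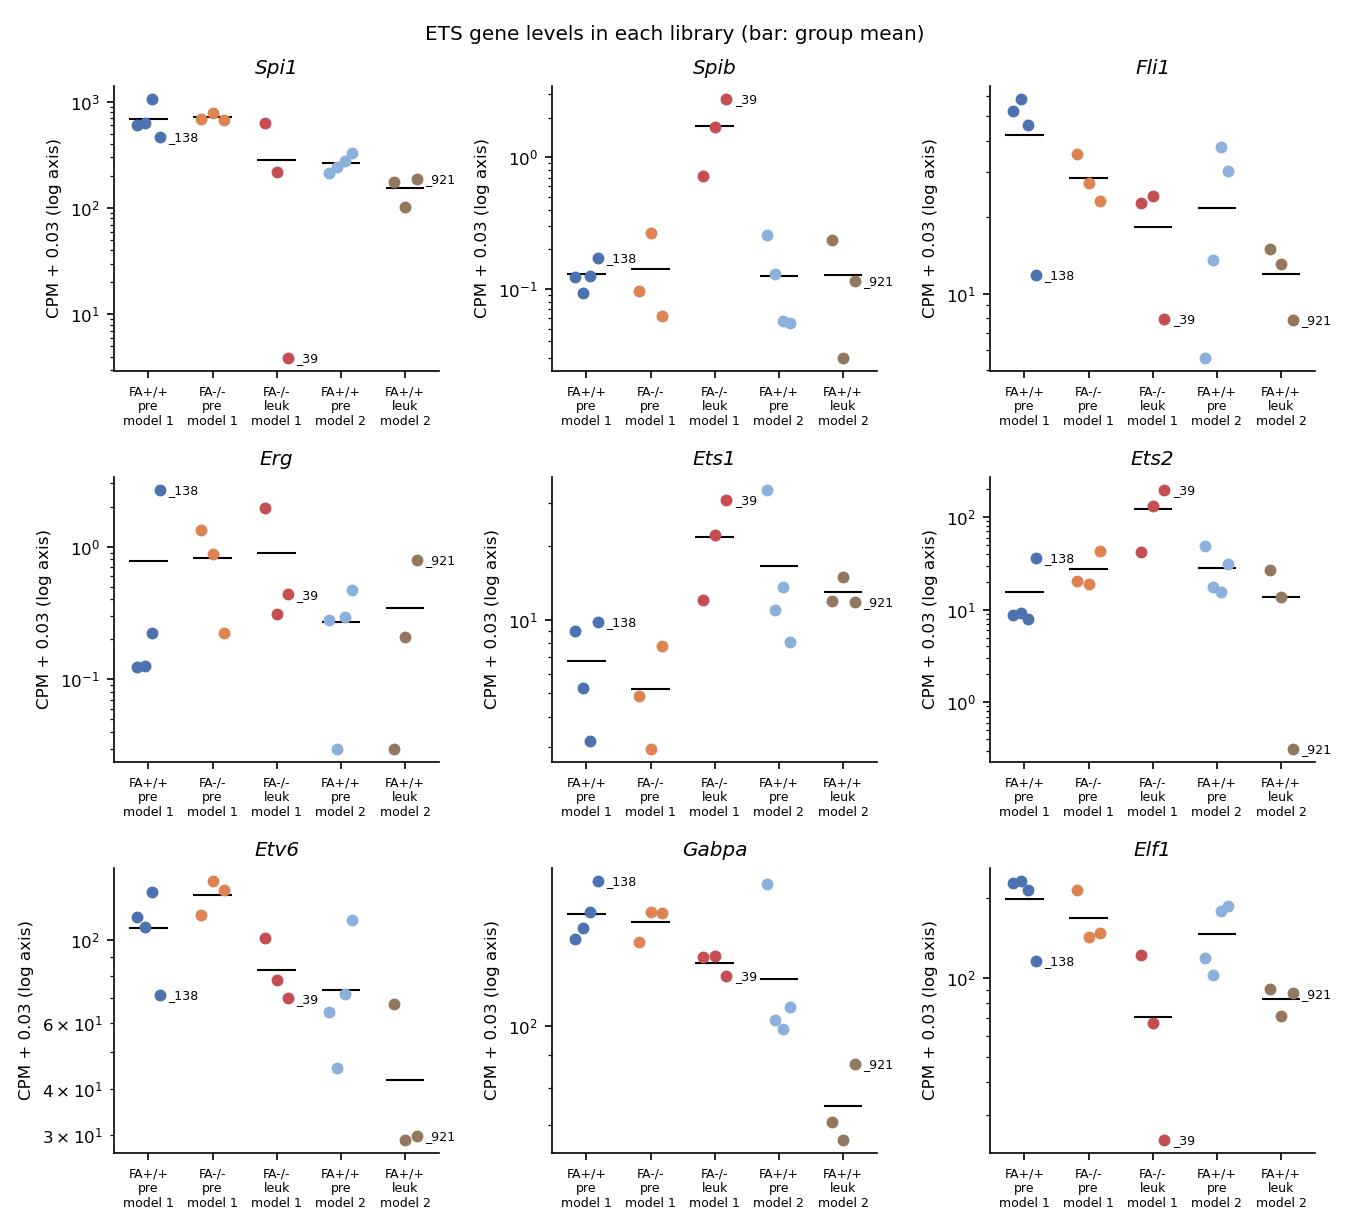
Levels of the 9 ETS genes in each of the 17 libraries, as CPM + 0.03 on a log axis, by genotype, stage and model, with a bar at each group mean (FA stands for TgSpi1FA, pre for preleukaemic, leuk for leukaemic, and _39, _138 and _921 mark leukemic_39, preleukemic_138 and leukemic_921). Spi1 was at 3.88 CPM in the leukaemic library leukemic_39, Spib stood above every other library in the 3 TgSpi1FA-/- leukaemic libraries, and Ets2 was at 0.284 CPM in library leukemic_921.

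Spi1 had 604, 636, 1061 and 467 CPM in the TgSpi1FA+/+ preleukaemic libraries preleukemic_445, preleukemic_479, preleukemic_451 and preleukemic_138. In the TgSpi1FA-/- preleukaemic libraries preleukemic_77, preleukemic_224 and preleukemic_40 it had 686, 781 and 670.0 CPM. In the leukaemic libraries leukemic_26, leukemic_28 and leukemic_39 it had 629.9, 219.7 and 3.88 CPM. The leukaemic library leukemic_26 stood just under the TgSpi1FA-/- preleukaemic range and within that of TgSpi1FA+/+, leukemic_28 lay below both, and leukemic_39 held 153 reads of Spi1. The mean of the preleukaemic TgSpi1FA-/- libraries was 184 times the level in leukemic_39, and the level in leukemic_26 was 162 times that in leukemic_39. A second deposited table holds other counts for 7 of these mice (how it was made is not stated). There Spi1 had 432 CPM in leukemic_26, 217.4 in leukemic_28 and 4.67 in leukemic_39. The 4 TgSpi1FA+/+ preleukaemic mice had 217.3 to 801.3 CPM there, so that leukemic_28, like leukemic_26, fell within their range. Both tables come from the same mice, so the second is no independent sample.

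The groups of leukaemic and preleukaemic TgSpi1FA-/- cells did not overlap for Spi1, yet the spread among leukaemic mice was as large as the mean (284 ± 318 CPM, n = 3, against 712 ± 59.8, n = 3). The log2 fold change was -1.32 with a standard error (SE) of 1.10, and edgeR's quasi-likelihood test with Benjamini-Hochberg adjustment over all genes tested gave an adjusted p of 0.443. It was -0.72 (SE 0.46) without leukemic_39 and -2.66 (SE 1.23) without leukemic_26, and neither passed (adjusted p 0.354 and 0.161 in edgeR). The exact permutation test gave p = 0.1, two-sided, which is the smallest that 3 against 3 mice allow. The order of the group means in model 1 was TgSpi1FA-/- preleukaemic, TgSpi1FA+/+ preleukaemic (692 ± 257 CPM, n = 4) and TgSpi1FA-/- leukaemic. In this order the ranges of neighbouring groups overlapped, and those of the first and the last did not.

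Library leukemic_39 had Spi1 at 1.44 CPM per kb, below Gabpa (21.03), Ets2 (34.0), Etv6 (11.7), Ets1 (3.66), Elf1 (3.59) and Fli1 (2.28 CPM per kb). Ets2 was the highest ETS gene there, whereas Spi1 was the highest in leukemic_26 (234 CPM per kb) and leukemic_28 (81.5). The erythroid factor Gata1, which SPI1 opposes, had 347 CPM in leukemic_39 against 344 in leukemic_26 and 389 in leukemic_28. Klf1, the activator of adult globin genes, had 99.2 CPM in leukemic_39 and 158 and 154 CPM in leukemic_26 and leukemic_28.

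Genes known as targets of SPI1 in myeloid and lymphoid cells were low in leukemic_39 as well. The list held 23 genes, of which 22 had a row and 12 were tested in model 1. Of these 12, 7 had their lowest level of the 10 libraries in leukemic_39, where 20.2% of all tested genes had theirs. The median log2 ratio of (CPM + 1) to the TgSpi1FA-/- preleukaemic mean was -2.39 over these 12 genes in leukemic_39, -0.49 in leukemic_28 and 0.26 in leukemic_26. Over all 13393 tested genes these medians were -0.04, -0.03 and -0.03. These ratios are values of single libraries and carry no test.

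Laptm5, a lysosomal protein of white blood cells, had 1.14 CPM in leukemic_39, 101 in leukemic_28 and 809 in leukemic_26, and at least 101 CPM in each of the other 9 libraries. Btk, the kinase of B cell receptor signalling, had 9.82 CPM in leukemic_39 and 122 to 417 CPM in the others. The adaptor Blnk had no read in leukemic_39, 1.15 CPM in leukemic_28 and 2.22 in leukemic_26, and ranged from 0.417 to 87.3 CPM over the 9 other libraries. The TgSpi1FA-/- preleukaemic libraries had 21.8 to 87.3 CPM of Blnk, so that it was also low in leukemic_26, where Spi1 had 629.9 CPM. Csf2rb, the shared receptor chain for GM-CSF and interleukin 3, had 36.4 CPM in leukemic_39 and 61.0 to 879 CPM in the others. A few listed genes did not take this course: Ncf4 had 6.01 CPM in leukemic_39 against 0.146 to 17.6, and Cd68 2.56 against 1.62 to 3.78. In the second table, of the same mice, leukemic_39 held the lowest value of Laptm5 (2.38 CPM), Btk (26.5), Blnk (0.0273) and Csf2rb (119 CPM) among 7 libraries. There it was lowest for 9 of 17 tested genes of the list and for 29.9% of all tested genes. It also had the fewest counts there (35497594, against 92925337 to 171572736).

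**Figure D2:**
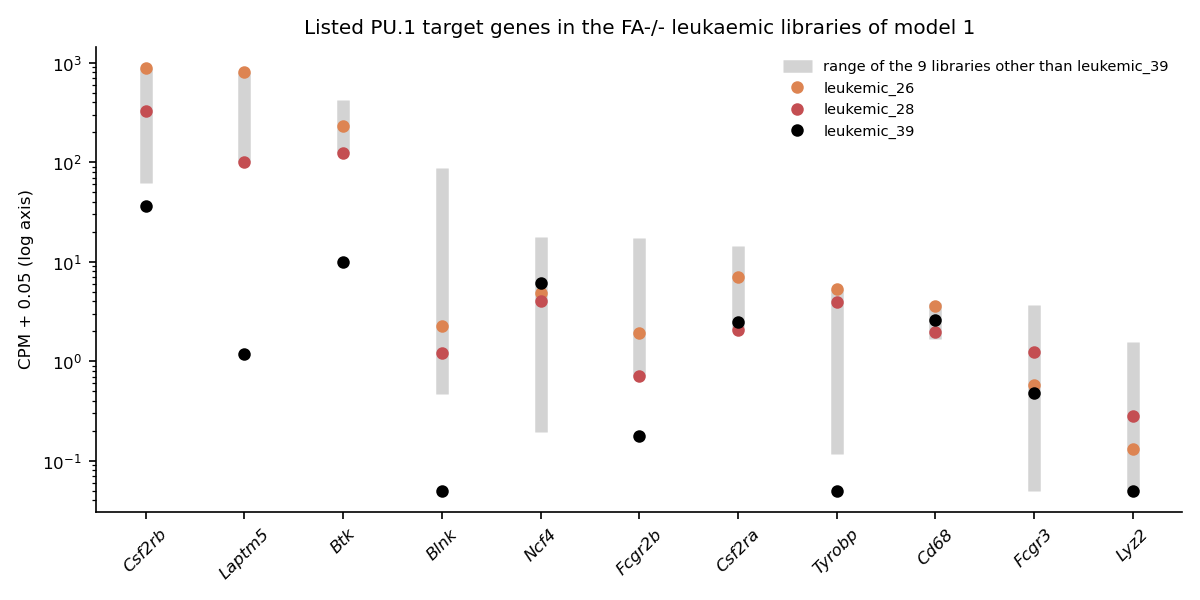
Levels of 11 tested genes of the PU.1 target list, as CPM + 0.05 on a log axis, in the TgSpi1FA-/- leukaemic libraries leukemic_26, leukemic_28 and leukemic_39 (points), with the range of the 9 model 1 libraries other than leukemic_39 in grey. Library leukemic_39 lies under the grey range for Csf2rb, Laptm5, Btk, Blnk, Fcgr2b and Tyrobp.

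As a group, these targets did not part leukaemic from preleukaemic TgSpi1FA-/- cells. Their summed level was 59.5 to 2005 CPM in leukaemic and 632.9 to 1742 CPM in preleukaemic libraries. Fcgr2b, the inhibitory receptor for immunoglobulin G, was the single gene of 12 called (fold change of at least 1.5 and adjusted p under 0.05 in edgeR), with a log2 fold change of -3.60 (SE 0.97, adjusted p = 0.0406). Over all tested genes 6.49% were called lower in this comparison. Of the 12, 6 had a higher and 6 a lower fitted level, with a median log2 fold change of -0.18 against -0.0012 over all genes.

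The 5 genes whose log2 CPM followed Spi1 most closely over the 10 libraries of model 1 were Ccdc88b (Pearson r = 0.995), Btk (0.993), Adgrg7 (0.990), Acsl5 (0.990) and Dock2 (0.987). Acsl5, a ligase that activates fatty acids, had 500 CPM in leukemic_26, 204 in leukemic_28 and 0.888 in leukemic_39. Dock2, an activator of RAC in white blood cells, had 164, 54.8 and 0.457 CPM in these libraries. Adgrg7 had 221 and 37.0 CPM in leukemic_26 and leukemic_28 and no read in leukemic_39. Without leukemic_39 and leukemic_28, the libraries farthest from the median of Spi1, r was 0.493 to 0.779 over 8 libraries, so the likeness rests on those mice. The 3 genes that ran most against Spi1 were Gdf11 (r = -0.989), Dll4 (-0.987) and Ipo9 (-0.984), with r between -0.253 and -0.550 without leukemic_39 and leukemic_28. Gdf11, a ligand of the TGF-beta family, had 11.2 CPM in leukemic_39 and 0.575 in leukemic_26. These genes were picked by their likeness to Spi1 in the same mice, so the second table gives no independent support. In it leukemic_39 was lowest for all 5 of the former genes (0.219 to 26.5 CPM). It was highest for Gdf11 and Ipo9, but not for Dll4. Library leukemic_39 was lowest there for 29.9% of all tested genes.

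Genes around the endogenous Spi1 gene did not share the level of the Spi1 row in leukemic_39. The site of the transgene is not given in the sources used here, and its counts are assumed to fall on that row. The neighbours therefore cannot show whether the transgene or the endogenous gene was low there. The 15 other tested genes that reach within 200 kb of Spi1 had a median log2 ratio of -0.09 to the TgSpi1FA-/- preleukaemic mean in leukemic_39. Their range was -1.34 to 3.80, whereas Spi1 had -7.19. In leukemic_28 the median of the neighbours was 0.12 and Spi1 had -1.69, and in leukemic_26 they were -0.04 and -0.18. The nearest tested neighbour by start site, Slc39a13, a zinc transporter, had 10.3 CPM in leukemic_39 against a preleukaemic mean of 15.5. Nr1h3 and Pacsin3 were the 2 neighbours called, both higher in leukaemic cells (log2 fold changes 2.44 and 7.35, adjusted p 0.0249 and 0.0282 in edgeR), at levels of at most 0.843 and 13.5 CPM against preleukaemic means of 0.124 and 0.0400 CPM. These 2 of 15 stand beside 13.3% of all tested genes called in this comparison, and Pacsin3 passed the filter on low counts only through its level in leukaemic cells.

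**Figure D3:**
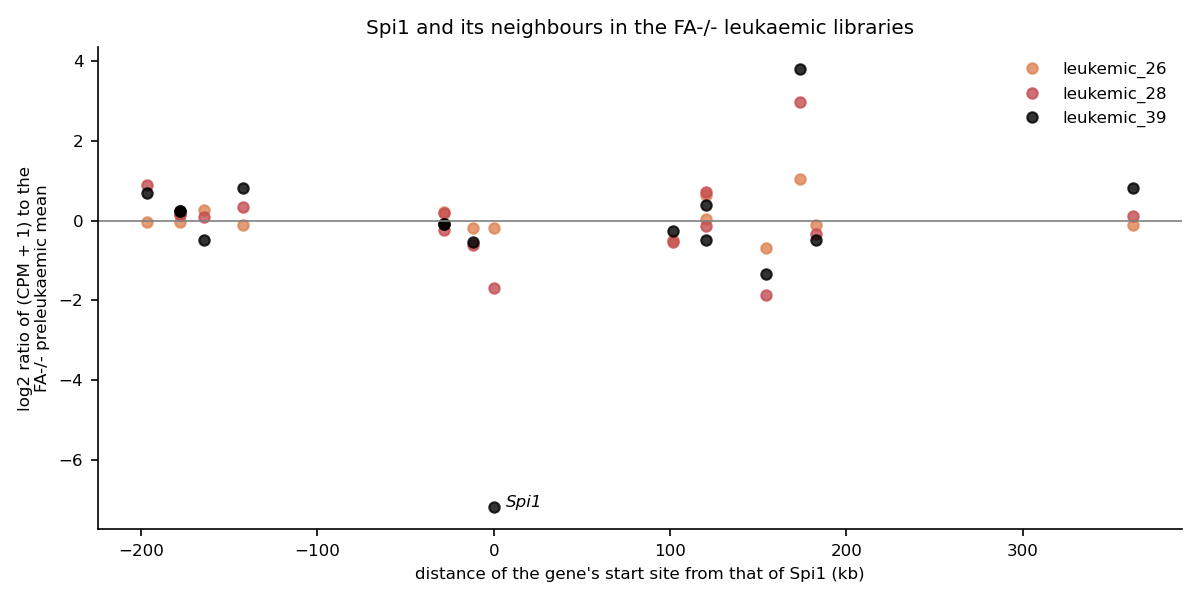
Log2 ratio of (CPM + 1) in leukemic_26, leukemic_28 and leukemic_39 to the mean of the TgSpi1FA-/- preleukaemic libraries for Spi1 and the 15 tested genes that reach within 200 kb of it, by the distance of their start sites from that of Spi1 in kb. Spi1 in leukemic_39 lies at -7.19, under every neighbour, and Pacsin3 at 3.80 lies above them. Counts of Spi1 are assumed to include those of the transgene, whose site is not given.

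Spib (ENSMUSG00000008193, chromosome 7 from 44525993 to 44532071, minus strand) took the opposite course at a low level. It had 0.685, 1.66 and 2.74 CPM (25, 65 and 108 reads) in the leukaemic libraries leukemic_26, leukemic_28 and leukemic_39. In the preleukaemic TgSpi1FA-/- libraries preleukemic_77, preleukemic_224 and preleukemic_40 it had 0.0657, 0.234 and 0.0324 CPM (2, 8 and 1 reads), and in the TgSpi1FA+/+ ones 0.0635 to 0.142 CPM. Each leukaemic library stood above each preleukaemic one. The share of reads was 15.5 times higher over the 3 leukaemic than over the 3 preleukaemic TgSpi1FA-/- libraries (198 against 11 reads, exact 95% interval 8.46 to 31.5, which covers counting error only). The log2 fold change in edgeR was 3.88 (SE 0.79, adjusted p = 0.0186), and Spib was called higher. It entered this test only through the leukaemic libraries, in which it was high. The call was lost without leukemic_28 (adjusted p = 0.0579), leukemic_39 (0.0529), preleukemic_40 (0.0533) or preleukemic_77 (0.0618), with log2 fold changes from 3.37 to 3.91. Without preleukemic_224 the log2 fold change was 5.02.

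Spib was at 0.740, 1.12 and 1.58 CPM in leukemic_26, leukemic_28 and leukemic_39 in the second table, and at 0.148 to 0.428 CPM in the 4 TgSpi1FA+/+ preleukaemic mice there. In model 2 it did not pass the filter, with 0 to 0.205 CPM in leukaemic and 0.0247 to 0.227 CPM in preleukaemic libraries (exact permutation test p = 0.971, two-sided). Markers of B cells, the lineage best known for Spib, summed to 0.486 to 0.736 CPM in the leukaemic and 0 to 0.0328 CPM in the preleukaemic TgSpi1FA-/- libraries, and all 4 with a row (of 6 listed) stayed under 1 CPM in every library. Their part in the level of Spib was not tested.

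Promoter sequence was at hand from RefSeq (GRCm38.p6) for 7 of the 10 genes, and none for Spi1, Fli1 or Ets1. The 250 bases before the start site are shown for Spib, which was called, and for Elf1, which had the highest r with Spi1 among the ETS genes over all 10 libraries of model 1, 5′ to 3′ on the strand of the gene, with the ETS core GGAA or its complement TTCC in capitals. The window of Spib is chr7:44532072-44532321 (minus strand) and that of Elf1 chr14:79480944-79481193 (plus strand, the first of 2 start sites).
Spib: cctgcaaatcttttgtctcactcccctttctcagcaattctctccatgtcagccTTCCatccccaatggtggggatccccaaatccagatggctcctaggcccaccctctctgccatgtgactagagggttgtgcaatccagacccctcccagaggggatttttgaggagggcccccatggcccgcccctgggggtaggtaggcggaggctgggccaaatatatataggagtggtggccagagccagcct
Elf1: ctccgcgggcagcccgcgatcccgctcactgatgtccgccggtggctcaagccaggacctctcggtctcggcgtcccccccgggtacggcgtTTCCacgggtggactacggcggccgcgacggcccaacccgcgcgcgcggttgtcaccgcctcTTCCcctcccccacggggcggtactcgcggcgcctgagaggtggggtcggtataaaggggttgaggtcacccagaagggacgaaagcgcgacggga
Spib held 1 core in this window and Elf1 held 2, and the core was found in 93.4% of 32851 promoters of the same length on either strand. The longer form GAGGAA, which contains the core and is favoured by SPI1, was on either strand in neither window, and 23.3% of all promoters held it. Such matches describe letters only and do not show binding.

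Ets1 (ENSMUSG00000032035, chromosome 9 from 32636221 to 32757820, plus strand) was the other gene called higher. It had 12.0, 22.1 and 31.1 CPM in leukemic_26, leukemic_28 and leukemic_39, against 4.83, 2.92 and 7.76 CPM in preleukemic_77, preleukemic_224 and preleukemic_40, and the groups did not overlap. The 4 TgSpi1FA+/+ preleukaemic libraries, with 3.14 to 9.74 CPM, also stayed below the leukaemic ones. The log2 fold change was 2.07 (SE 0.56, adjusted p = 0.0405 in edgeR). Leaving out preleukemic_445 (adjusted p = 0.0582), preleukemic_479 (0.0596), preleukemic_224 (0.118), leukemic_28 (0.0971), leukemic_39 (0.107), preleukemic_40 (0.0581) or preleukemic_77 (0.103) ended the call, and the log2 fold change then lay between 1.75 and 2.48. It also ended with no filter on low counts (adjusted p = 0.0521 in edgeR) and with the TgSpi1FA+/+ libraries left out of the fit (0.0571). In the second table Ets1 had 6.47, 14.6 and 14.3 CPM in leukemic_26, leukemic_28 and leukemic_39 and 1.98 to 7.86 CPM in the TgSpi1FA+/+ mice, so that leukemic_26 fell within their range.

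Ets2 (ENSMUSG00000022895, chromosome 16 from 95702075 to 95721051, plus strand) had 42.0, 130.3 and 197 CPM in the leukaemic libraries leukemic_26, leukemic_28 and leukemic_39. The preleukaemic TgSpi1FA-/- libraries preleukemic_77, preleukemic_224 and preleukemic_40 had 20.3, 19.0 and 42.9 CPM, so that leukemic_26 fell just under preleukemic_40. Its log2 fold change was 2.17 (SE 0.75, adjusted p = 0.0821 in edgeR), which did not pass. DESeq2's Wald test called it (log2 fold change 2.21, adjusted p = 0.0171). EdgeR also called it without leukemic_26 (log2 fold change 2.58, adjusted p = 0.0422) or without preleukemic_138 (2.17, 0.0320), the TgSpi1FA+/+ library with 36.5 CPM against 7.95 to 9.17 in the other 3.

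Ets1 and Ets2 each lie beside a gene of the ERG subfamily, with 93.4 kb between Fli1 and Ets1 and 115.5 kb between Erg and Ets2 (GENCODE M21). Fli1 (ENSMUSG00000016087, chromosome 9 from 32422204 to 32542861, minus strand), a driver of erythroleukaemia in mice infected with Friend virus, had 22.6, 24.1 and 7.94 CPM in leukemic_26, leukemic_28 and leukemic_39 and 35.5, 27.1 and 23.2 CPM in preleukemic_77, preleukemic_224 and preleukemic_40. These groups overlapped, and the log2 fold change of -0.65 (SE 0.57) did not pass (adjusted p = 0.468 in edgeR). Erg (ENSMUSG00000040732, chromosome 16 from 95359169 to 95586593, minus strand) stayed at or under 2.64 CPM in all libraries of model 1 and at or under 0.766 CPM in model 2. Its log2 fold change of 0.14 had an SE of 1.36 (adjusted p = 0.958), and it turned to -1.18 without leukemic_26 and to -0.32 without preleukemic_40.

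Elf1 (ENSMUSG00000036461, chromosome 14 from 79481194 to 79582494, plus strand) had 122, 67.0 and 24.2 CPM in leukemic_26, leukemic_28 and leukemic_39. The preleukaemic libraries preleukemic_77, preleukemic_224 and preleukemic_40 had 214, 143 and 148 CPM, all above the leukaemic ones. Its log2 fold change of -1.25 (SE 0.50) did not pass (adjusted p = 0.121 in edgeR), except in a fit without leukemic_26 (-1.88, adjusted p = 0.0325). Over the 10 libraries its log2 CPM had r = 0.914 with that of Spi1, or 0.413 without leukemic_39 and leukemic_28. Without these libraries Etv6 (0.796, against 0.680 over all 10) and Fli1 (0.506, against 0.709) had higher values than Elf1. The second table gave 118, 69.5 and 12.8 CPM in leukemic_26, leukemic_28 and leukemic_39. The TgSpi1FA+/+ preleukaemic mice had 89.1 to 158.6 CPM of Elf1 there, so that leukemic_26 fell within their range. Elf1 overlaps the antisense gene Wbp4, and the strand setting of the counting is not stated.

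Etv6 (ENSMUSG00000030199, chromosome 6 from 134035700 to 134270158, plus strand) had 102, 78.3 and 69.7 CPM in leukemic_26, leukemic_28 and leukemic_39 and 117, 144 and 136 CPM in preleukemic_77, preleukemic_224 and preleukemic_40. The groups did not overlap, and the log2 fold change was -0.67 (SE 0.23, adjusted p = 0.0813 in edgeR). Without preleukemic_138 the adjusted p was 0.0329 at the same log2 fold change. Gabpa (ENSMUSG00000008976, chromosome 16 from 84834925 to 84863779, plus strand) had the smallest coefficient of variation of the 9 genes within each group of model 1 (3.87% to 9.27%), at 128, 128 and 119.6 CPM in leukaemic and 135, 150.2 and 149.7 CPM in preleukaemic TgSpi1FA-/- libraries. Its log2 fold change was -0.21 (SE 0.11, adjusted p = 0.214), although its groups did not overlap. Gabpa overlaps the antisense gene Atp5j, and Etv6 and Fli1 overlap gene models that had rows of their own.

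Of the 9 ETS genes, 2 were called in the comparison of leukaemic with preleukaemic TgSpi1FA-/- cells, both higher. Over all genes tested 13.3% were called, and 6.82% were called higher. The groups did not overlap for 6 of the 9, as for 38.7% of all genes. DESeq2 called Spib, Ets1 and Ets2, and 19.8% of all genes. These counts include Spib, which entered the test only through the group in which it was high.

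**Figure D4:**
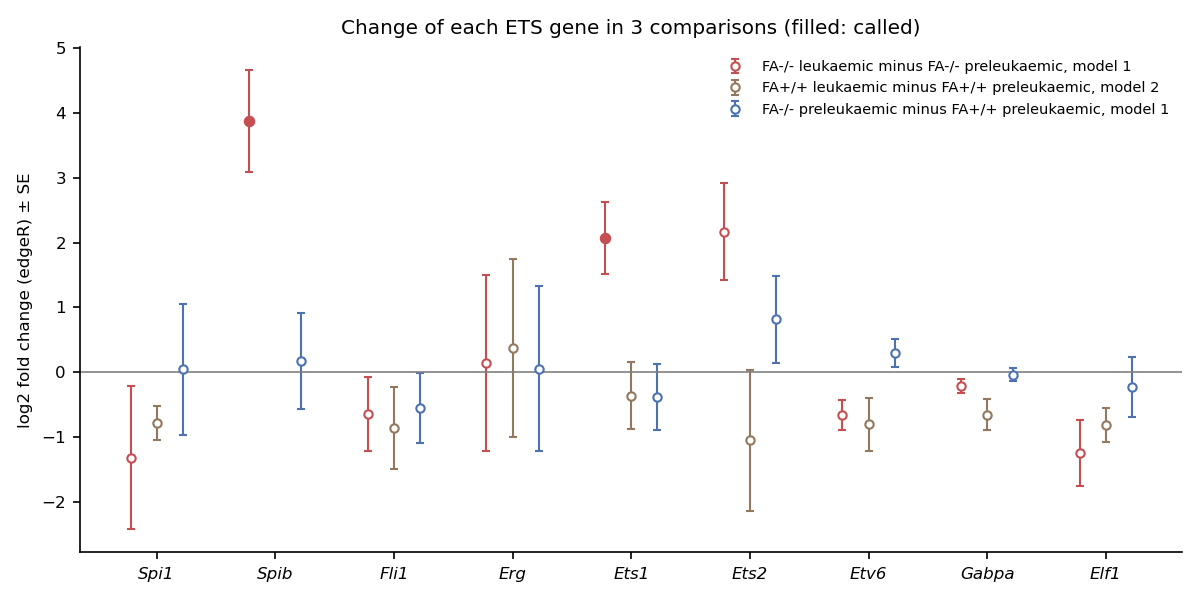
Log2 fold change of the 9 ETS genes with its SE (edgeR) for leukaemic minus preleukaemic cells in model 1 and in model 2, and for TgSpi1FA-/- minus TgSpi1FA+/+ preleukaemic cells in model 1 (filled points were called). Only Spib and Ets1 in the leukaemic comparison of model 1 are filled, and Spib has no point in model 2, where it was not tested.

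The 3 leukaemic TgSpi1FA-/- libraries differed among themselves in these genes. Spib, Ets1 and Ets2 stood lowest in leukemic_26 and highest in leukemic_39, and Spi1, Elf1 and Etv6 stood highest in leukemic_26 and lowest in leukemic_39. From leukemic_26 to leukemic_39, Ets2 was 4.68 times higher, Spib 3.999 times and Ets1 2.58 times, while Elf1 was 5.03 times and Etv6 1.46 times higher in leukemic_26. The second table gave leukemic_39 the highest Ets2 (6.04 times leukemic_26) and Spib (2.14 times), whereas Ets1 was highest in leukemic_28. With 3 mice of a group no relation between these genes was tested. The study reports a Kit mutation in the mouse of leukemic_26 and an Nras mutation in those of leukemic_28 and leukemic_39. Whether these levels go with the mutations was not tested.

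**Figure D5:**
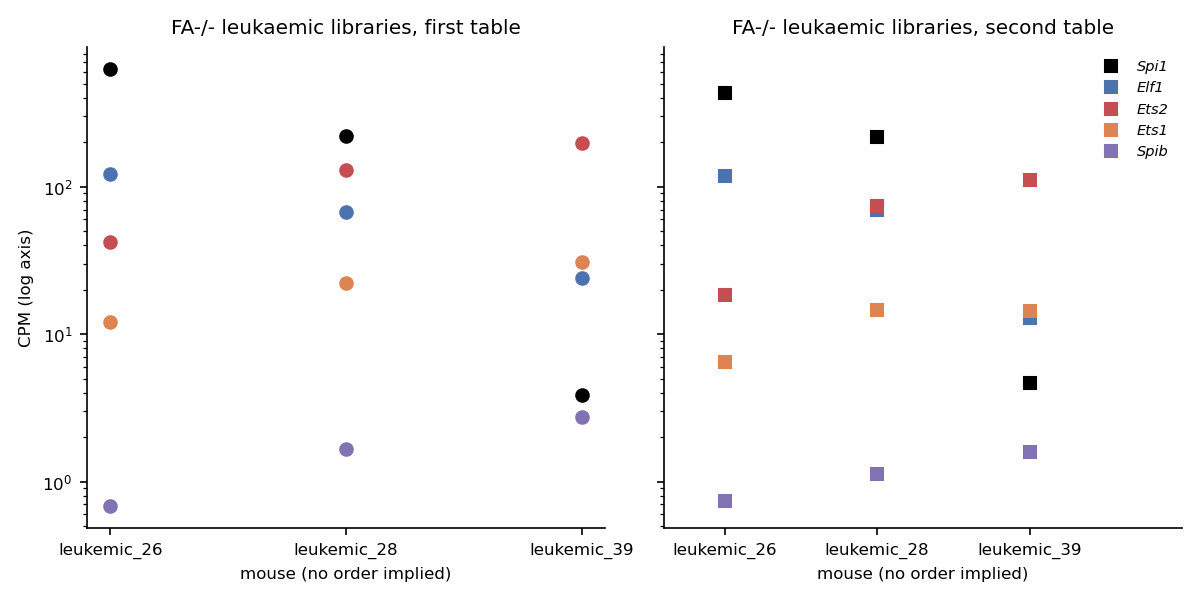
Levels in CPM (log axis) of Spi1, Elf1, Ets2, Ets1 and Spib in the TgSpi1FA-/- leukaemic libraries leukemic_26, leukemic_28 and leukemic_39, from the table of model 1 (circles) and from the second table of other counts for the same mice (squares). In both tables Spi1 and Elf1 are lowest in leukemic_39 and Ets2 and Spib are highest there.

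No difference in the ETS genes was detectable between preleukaemic cells with and without Fanca. In TgSpi1FA-/- against TgSpi1FA+/+ preleukaemic cells of model 1, 0 of 9 were called by edgeR (0 at an unadjusted p under 0.05) and 0 by DESeq2, and the groups overlapped for all 9. The smallest adjusted p was 0.735, for Etv6 (log2 fold change 0.30, SE 0.21). The log2 fold change of Spi1 was 0.04 (SE 1.01, adjusted p = 0.995). The fit shares its estimate of the spread with the leukaemic group, so this SE includes the spread among leukaemic mice. The coefficient of variation of Spi1 was 112% in leukaemic cells, against 8.39% in TgSpi1FA-/- and 37.1% in TgSpi1FA+/+ preleukaemic cells. Over all genes 0.00747% were called by edgeR and 1.87% by DESeq2, and the groups did not overlap for 8.53%. The widest differences were those of Ets2 (0.81, SE 0.67) and Fli1 (-0.56, SE 0.54). Library preleukemic_138 had 11.8 CPM of Fli1, against 45.9 to 58.3 CPM in the other 3 TgSpi1FA+/+ libraries.

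Leukaemic cells of model 2, which keep Fanca, had lower fitted levels of 7 of the 8 tested ETS genes. The median log2 fold change of the 8 genes was -0.79, against -0.03 over all genes, and this difference was not tested. EdgeR called 0 of 8 (3 at an unadjusted p under 0.05), and DESeq2 called 0. Spi1 had 174, 103 and 188 CPM in the leukaemic libraries leukemic_601, leukemic_606 and leukemic_921 and 215, 243, 274 and 332 CPM in the preleukaemic libraries preleukemic_633, preleukemic_663, preleukemic_812 and preleukemic_837. All leukaemic libraries were below all preleukaemic ones (log2 fold change -0.78, SE 0.26, adjusted p = 0.182 in edgeR). Elf1 had 90.8, 71.4 and 87.0 CPM against 118, 102, 179 and 187 CPM (-0.82, SE 0.26, adjusted p = 0.176), also without overlap. Gabpa had 70.8, 66.4 and 87.3 CPM against 166, 102, 98.6 and 107 CPM (-0.66, SE 0.24, adjusted p = 0.195).

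For these 3 genes the exact permutation test gave p = 0.0571, two-sided, the smallest that 3 against 4 mice allow. The groups did not overlap for 3 of 8 ETS genes and for 20.1% of all genes tested. Over all genes edgeR called 0.0%, with 2587 of 12970 genes at an unadjusted p under 0.05, and DESeq2 called 3.45%. Etv6 had 67.4, 29.1 and 29.9 CPM in leukaemic and 45.5 to 113 CPM in preleukaemic libraries (-0.80, SE 0.41, adjusted p = 0.317). Ets2 had 26.7 and 13.7 CPM in leukemic_601 and leukemic_606 and 0.284 CPM in leukemic_921, against 15.7 to 48.9 CPM, with a log2 fold change of -1.05 (SE 1.09, adjusted p = 0.623). Ets1 had 12.0, 15.0 and 11.8 CPM in the leukaemic libraries, within the preleukaemic range of 8.04 to 34.0 CPM. Fli1 (7.86 to 15.0 against 5.57 to 37.8 CPM) overlapped as well.

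The difference between both leukaemic changes was tested in 1 fit of all 17 libraries. There edgeR called 0 of 9 ETS genes, against 4.61% of all genes. At an unadjusted p under 0.05 stood 3 of the 9, against 25.8% of all genes. Ets1 came closest, with a log2 change 2.42 higher in model 1 than in model 2 (SE 0.78, adjusted p = 0.0744 in edgeR). DESeq2 called it (2.48, SE 0.78, adjusted p = 0.0173), as it did 13.5% of all genes. The difference was 3.22 for Ets2 (SE 1.39, adjusted p = 0.159) and 3.83 for Spib (SE 1.44, adjusted p = 0.113). For Spi1 it was -0.55 (SE 1.21, adjusted p = 0.809). This fit carries the difference in strain, model and library protocol.

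The other ETS genes listed (16, of which 15 had a row and 10 were tested in model 1) held 2 that were called in leukaemic against preleukaemic TgSpi1FA-/- cells, both higher, where 13.3% of all tested genes were called and 6.82% were called higher. Etv3, a repressor, had 58.4 ± 2.98 CPM (n = 3) against 38.1 ± 2.71 (n = 3), with a log2 fold change of 0.62 (SE 0.15, adjusted p = 0.0280 in edgeR). Ehf, an epithelial factor, had 0.825 ± 0.152 against 0.0433 ± 0.0494 CPM (4.17, SE 1.18, adjusted p = 0.0460), and like Spib it passed the filter on low counts only through its level in leukaemic cells. The median log2 fold change of the 10 genes was 0.53, against -0.0012 over all genes. In TgSpi1FA-/- against TgSpi1FA+/+ preleukaemic cells and in model 2, 0 of 10 tested genes of this list were called. Over all genes edgeR called 0.00747% and 0.0% in these comparisons.

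Among partners and antagonists of ETS factors, 5 of 14 tested genes were called lower in leukaemic TgSpi1FA-/- cells and 0 higher, where 6.49% of all tested genes were called lower and 6.82% higher. They were Myb, a factor of immature blood cells (244 ± 99.2 against 639 ± 45.5 CPM, log2 fold change -1.39, adjusted p = 0.0119 in edgeR), Rb1 (-1.38, adjusted p = 0.0159), Klf1 (-1.27, adjusted p = 0.00626), the bridging factor Lmo2 (-1.01, adjusted p = 0.0295) and the repressor Gfi1b (-0.75, adjusted p = 0.0127). Gata1 had 360 ± 25.3 against 454 ± 106 CPM and was not among them. In model 2, 0 of 14 were called, where edgeR called 0.0% of all tested genes. Runx1, a partner of ETS1 on DNA, had 33.7 ± 3.79 CPM in leukaemic and 61.7 ± 14.4 CPM in preleukaemic cells of model 2 (-0.87, SE 0.24, adjusted p = 0.162).

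Some markers of erythroid and other lineages were called between leukaemic and preleukaemic TgSpi1FA-/- cells, where 6.49% of all tested genes were called lower and 6.82% higher. Of 11 tested erythroid markers 3 were called lower: Hbb-bt, Ermap and Klf1 (log2 fold changes -5.94, -2.19 and -1.27, adjusted p 0.0265, 0.00241 and 0.00626 in edgeR). Megakaryocyte markers summed to 173 to 275 CPM against 45.6 to 59.8 CPM, with 1 of 5 called higher, the integrin Itga2b (3.21, SE 0.38, adjusted p = 0.00472). All 5 had a higher fitted level. The TgSpi1FA+/+ preleukaemic libraries summed to 59.7 to 201 CPM, which overlaps the leukaemic range. Itga2b alone had a mean of 180 CPM in leukaemic cells, and Pf4 had 0.837 to 69.9 CPM against 9.19 to 23.0 CPM. Kdr, a receptor of endothelial cells and their precursors, was 1 of 2 tested endothelial markers and was called higher (5.61, SE 0.82, adjusted p = 0.00770). Lck, the single tested T cell marker, was called higher too (2.17, SE 0.52, adjusted p = 0.0293). Of mast cell markers 0 of 3 were called. In model 2 edgeR called 0.0% of all tested genes, and so 0 in any of these lists. Megakaryocyte markers there summed to 11.01 to 117 CPM in leukaemic and 31.6 to 88.6 CPM in preleukaemic cells. All 4 mast cell markers tested there had a higher fitted level in leukaemic cells. The whole mast cell list summed to 64.2 to 72.3 CPM in leukaemic and 2.57 to 55.8 CPM in preleukaemic cells of model 2. The part of these markers in the levels of Ets1, Ets2 and Spib was not tested.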

How the data were processed

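RNA-seq of 17 mice was analysed from raw read counts per Ensembl gene, which the authors deposited without normalization in 1 table for each model. Per the labels, libraries were made from polyA RNA with a stranded kit, and the submitters' processing notes name bcl2fastq 2.17.1.14, STAR 2.5.3a, HTSeq 0.6.1p1 and mm10 (GRCm38). The annotation and the strand setting are not given in the sources used here. A second table of other counts for 7 mice (35497594 to 171572736 counts per library) served only for levels, and an identical deposited duplicate of the model 2 counts was left aside, as were 947 genes of model 2 that had no value. Total counts were 29964576 to 38217654 per library in model 1 and 37726753 to 40514205 in model 2.

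Each table was filtered with filterByExpr by group, scaled by TMM and fitted whole with edgeR 4.0.16 (glmQLFit and glmQLFTest, R 4.3.3), with 3 groups in model 1 and 2 in model 2. A fit of all 17 libraries over genes in both tables tested the difference between the leukaemic changes. A gene was called at a Benjamini-Hochberg adjusted p under 0.05 over all genes tested and a fold change of at least 1.5, the thresholds of the study. CPM were counts divided by the TMM-scaled library size. Exact permutation tests (scipy 1.17.1, log2(CPM + 1), two-sided, raw p) accompany the fits. The fits were tested on simulated data. Alternatives were the Wald test and the size factors of DESeq2 (1.42.0), other filters, robust empirical Bayes, only the compared groups, preleukemic_445 and preleukemic_479 as 1 library, the adjusted p alone and each mouse left out. GENCODE M21 (GRCm38) gave positions and exon lengths, with 99.8% of model 1 identifiers found.

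The ETS genes, the lists and the rule for naming genes were chosen with earlier results of these data known. Named were the ETS genes, Fanca, of each list the genes called (up to 6) or otherwise some of the largest changes, the 5 genes most and the 3 least like Spi1 by Pearson correlation, and genes within 200 kb of Spi1. Single genes of the PU.1 target list, Gata1, and the sequences shown were picked after their values were seen. The values of 1 gene of that list, which counts in its totals, are not reported here. Each library carries its own mouse number, and p-values measure the spread between mice, pooled in the fits over all fitted groups.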

Additional observations from a re-analysis of the deposited data

Results flagged for a closer look

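Of 18 groups of 4 libraries (9 ETS genes in the TgSpi1FA+/+ preleukaemic mice of each model), 4 held a library farther from the others than Dixon's 95% limit allows. Chance flags about 1 in 20 independent groups. These groups were not independent, since the genes share the same mice and preleukemic_445 and preleukemic_479 of model 1 were unusually alike. Library preleukemic_138 of model 1 gave 3 of these. It had 2.64 CPM of Erg against 0.0936 to 0.192 in the other 3, 36.5 CPM of Ets2 against 7.95 to 9.17, and 116.0 CPM of Elf1 against 215 to 233. In model 2, library preleukemic_633 had 166 CPM of Gabpa against 98.6 to 107 in the other 3. The groups of 3 libraries, with Spi1 in leukemic_39 and Ets2 in leukemic_921 among them, are too small for this rule.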

How the results depend on the processing

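Counts of called genes in leukaemic against preleukaemic TgSpi1FA-/- cells depended on single mice. Of the ETS genes, 2 were called, 0 to 4 with 1 mouse left out (0 without leukemic_28, leukemic_39, preleukemic_40 or preleukemic_77, 4 without leukemic_26 or preleukemic_138), 1 with no filter, with the other group of the model left out of the fit, or with 1 CPM in 3 libraries, which removes Spib. Over all genes it was 1782, 414 to 2319 with 1 mouse left out (414 without leukemic_28, 418 without preleukemic_224, 711 without leukemic_39, 822 without preleukemic_77, 833 without preleukemic_40) and 3099 with DESeq2. In TgSpi1FA-/- against TgSpi1FA+/+ preleukaemic cells 1 gene was called, 1 to 16 with 1 mouse left out (16 without preleukemic_451), 4 with no filter and 256 with DESeq2. In model 2 it was 0, 0 to 1 with 1 mouse left out (1 without leukemic_601 or leukemic_921) and 470 with DESeq2. For the difference of the leukaemic changes, 0 ETS genes were called (1, Ets1, with DESeq2) and 673 of all genes, against 1 to 1359 with 1 mouse left out (1 without leukemic_28, 1359 without preleukemic_812), 279 with no filter and 2037 with DESeq2. The cause was not tested.

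Directions that turned belonged to uncalled genes. In TgSpi1FA-/- against TgSpi1FA+/+ preleukaemic cells, taking preleukemic_445 and preleukemic_479 as 1 library gave -0.0080 for Spi1 and -0.32 for Erg. With 1 mouse left out the log2 fold changes there ranged from -0.11 to 0.31 for Spi1, -0.54 to 2.60 for Erg, -0.082 to 0.024 for Gabpa and -0.98 to 0.59 for Spib. They ranged from -1.18 to 0.75 for Erg in the leukaemic comparison of model 1, and in model 2 from -0.59 to 0.25 for Ets1 and -1.39 to 0.96 for Erg. For the difference of the changes they ranged from -1.90 to 0.031 for Spi1, -0.20 to 0.58 for Fli1, -1.60 to 1.52 for Erg and -0.18 to 0.62 for Etv6. Over all alternatives the log2 fold changes of single ETS genes kept their direction and their side of the thresholds 123 times in the leukaemic comparison of model 1 (13 lost a call, 5 gained one and 2 turned), in all but 13 between preleukaemic genotypes (which turned), 89 times in model 2 (2 turned) and 183 times for the difference of the changes (13 turned, 1 gained a call). Of the levels set against the second table, 11 of 18 group means moved by less than 1 SD.

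Groups of 3 or 4 mice limit what can pass, and Spib and Erg rest on few reads. The replicate labels are mouse numbers that no groups share, so no pairing was fitted.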
